A study of Mus musculus with 28 samples.

Results

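The genes *Fos*, *Fosb*, *Jun*, *Junb*, *Egr1*, *Atf3*, *Ier2*, *Dusp1*, *Hspa1a* and *Hspa1b* are immediate early and stress response genes of the mouse. They were found by symbol as rows of the deposited count table, through the Ensembl gene ID with its version dropped. The rule uses symbols and no measured value, although the genes were proposed with earlier results of these data known. All 10 were present among 50600 gene rows, and all 10 passed the filter on low counts. They took between 0.234% and 1.14% of all counts in a library. Their levels are described over the 8 groups of the study and between the single libraries of a group.

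Immediate early genes are transcribed from poised promoters within minutes of a signal, without the need for newly made protein, and their short-lived transcripts fall again soon after. Most encode transcription factors, such as the AP-1 family, in which *Fos* proteins pair with *Jun* proteins, and the pathway also switches on its own brakes, such as phosphatases that inactivate MAP kinases. Heat shock genes answer unfolded protein through the factor HSF1, and both groups are known to be induced when a solid tissue is taken apart with enzymes to obtain single cells.

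RNA was sequenced from the mammary glands of 7 adult female *PdgfrαCre R26mTmG* mice on the C57BL/6 background, aged 10 to 12 weeks, of which 4 were untreated and 3 received estradiol and progesterone (E+P). In these mice every cell starts with the red membrane protein tdTomato, and a cell that has expressed *Pdgfra*, a receptor of mesenchymal progenitors, turns on GFP for good together with its progeny, so that GFP marks a history and not present *Pdgfra* expression. From each mouse, stromal cells (CD49f- EpCAM-) and luminal epithelial cells (CD49flo EpCAM+) were sorted into GFP+ and tdTomato+ fractions after blood and endothelial cells and dead cells had been gated out, which gave 28 libraries in 8 groups of 4 or 3. The E+P pellets (0.14 mg of 17β-estradiol and 14 mg of progesterone for 14 days) are described in the study for wild-type females and not for this reporter line, all groups carried the same Cre and reporter alleles, and the controls are labelled as untreated.

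All 28 libraries came from glands digested with collagenase and hyaluronidase for 2.5 h at 37 °C and then passed through trypsin and dispase before the sort. As no library was made from undigested tissue, transcripts present in the gland and transcripts made during the digestion cannot be told apart. RNA integrity numbers ran from 1 to 10 over the samples of the study, without a value for each library. Library totals ran from 8623383 to 24583803 counts with a median of 15329083.5, and the lowest count of any of the 10 genes in any library was 489, for *Ier2*. In sorted populations of this kind, fewer cells of a type and less RNA per cell cannot be told apart.

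The sort was checked against marker genes. The summed level of 10 luminal epithelial markers, among them *Krt8*, *Krt18* and *Epcam*, reached 6783 CPM (counts scaled to a common library total) in the GFP+ luminal fraction of untreated mice and 7283 CPM in the tdTomato+ one, against 42.8 and 223 CPM in the matching stromal fractions. *Pdgfra* itself lay at 2028 CPM in untreated GFP+ stroma and at 15.7 CPM in untreated GFP+ luminal cells. The 5 basal markers summed to 57.7 CPM in GFP+ and 12.3 CPM in tdTomato+ luminal cells of untreated mice, with *Oxtr* the most abundant (41.9 and 6.18 CPM) and the keratins *Krt14* and *Krt5* at 3.79 and 0.462 CPM in the GFP+ cells. Of these 5 markers, 2 were called higher in GFP+ luminal cells. The tdTomato+ stroma was mixed: pericyte and smooth muscle markers summed to 8397 CPM there and skeletal muscle markers to 7448 CPM in untreated mice, against 229 and 11.2 CPM in GFP+ stroma.

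The members fall into 4 roles. *Fos* (ENSMUSG00000021250.13, chr12:85473890-85477273, plus strand, GRCm38) and *Fosb* (ENSMUSG00000003545.3, chr7:19302696-19310051, minus strand) encode one side of the AP-1 dimer, *Jun* (ENSMUSG00000052684.4, chr4:95049034-95052222, minus strand) and *Junb* (ENSMUSG00000052837.6, chr8:84974484-84978718, minus strand) the other side, and *Atf3* (ENSMUSG00000026628.13, chr1:191170296-191218039, minus strand) a stress-induced partner of the same leucine zipper class. *Egr1* (ENSMUSG00000038418.7, chromosome 18) encodes a zinc finger transcription factor induced by growth factors, and *Ier2* (ENSMUSG00000053560.4, chr8:84661331-84662852, minus strand) an immediate early nuclear protein. *Dusp1* (ENSMUSG00000024190.6, chromosome 17, minus strand) encodes a phosphatase that inactivates MAP kinases and so limits the response. Its counted gene model is of another version than the GENCODE M21 model, so no span is given and its exon length is that of M21. *Hspa1a* (ENSMUSG00000091971.3, chr17:34969190-34972156, minus strand) and *Hspa1b* (ENSMUSG00000090877.3, chr17:34956436-34959238, minus strand) are neighbouring copies of the stress-inducible chaperone HSP70.

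Counts between the HSP70 copies are uncertain. Of all windows of 75 bases, the read length, 52.7% of the *Hspa1a* transcript were also found in *Hspa1b* and 55.8% of the *Hspa1b* transcript in *Hspa1a*, so the division of reads between them depends on how shared reads were counted. The ratio of *Hspa1b* to *Hspa1a* CPM ran from 1.18 to 2.39 over the 28 libraries. The gene models of *Jun*, *Junb*, *Atf3*, *Dusp1* and *Hspa1a* overlap a gene on the other strand. The antisense gene *Junos* at *Jun* ranged from 1.65 to 32.6 CPM and *Gm20481* at *Hspa1a* from 0.122 to 9.92 CPM, both below every value of the member they overlap. *Prdx2* at *Junb* ranged from 24.7 to 95.4 CPM, against 110.4 CPM in the lowest *Junb* library, and *Ergic1*, which overlaps the GENCODE M21 model of *Dusp1*, from 19.4 to 121 CPM, which is in the range of luminal *Dusp1*. The strand setting of the counts is not given in the sources used here.

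Promoters are shown for the HSP70 pair, for *Jun*, which holds the same heat shock motif, for *Fos* and *Atf3*, whose deviations from library to library were the most alike after those of the HSP70 pair, and for *Dusp1*, the member with the steepest step between stroma and epithelium after *Egr1*. Each runs from 250 bases before to 50 bases after the RefSeq start on GRCm38.p6, read 5′ to 3′ on the strand of the gene, and capitals mark a motif found on either strand: the heat shock pair GAANNTTC or TTCNNGAA, the cAMP response element TGACGTCA and the TATA box TATAAA. The windows are chr17:34972107-34972406, chr17:34959189-34959488, chr4:95052173-95052472, chr12:85473640-85473939, chr1:191183284-191183583 and chr17:26508423-26508722, in the order of the lines.
Hspa1a: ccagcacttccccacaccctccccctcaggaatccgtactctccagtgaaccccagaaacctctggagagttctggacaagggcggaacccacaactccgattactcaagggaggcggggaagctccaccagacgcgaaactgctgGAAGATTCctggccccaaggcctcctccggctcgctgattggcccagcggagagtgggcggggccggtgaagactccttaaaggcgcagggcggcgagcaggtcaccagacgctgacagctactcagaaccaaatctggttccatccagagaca
Hspa1b: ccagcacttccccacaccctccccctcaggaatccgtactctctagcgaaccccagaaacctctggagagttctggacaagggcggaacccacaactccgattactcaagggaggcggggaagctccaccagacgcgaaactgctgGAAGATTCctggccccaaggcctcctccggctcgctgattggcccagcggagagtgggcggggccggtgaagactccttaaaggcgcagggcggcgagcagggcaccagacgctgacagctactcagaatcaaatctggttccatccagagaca
Jun: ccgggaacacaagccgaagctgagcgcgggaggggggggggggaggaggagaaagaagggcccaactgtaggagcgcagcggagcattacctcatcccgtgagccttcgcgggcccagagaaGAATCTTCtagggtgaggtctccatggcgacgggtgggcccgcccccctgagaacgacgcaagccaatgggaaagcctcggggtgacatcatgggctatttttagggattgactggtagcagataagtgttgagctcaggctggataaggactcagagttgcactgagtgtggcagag
Fos: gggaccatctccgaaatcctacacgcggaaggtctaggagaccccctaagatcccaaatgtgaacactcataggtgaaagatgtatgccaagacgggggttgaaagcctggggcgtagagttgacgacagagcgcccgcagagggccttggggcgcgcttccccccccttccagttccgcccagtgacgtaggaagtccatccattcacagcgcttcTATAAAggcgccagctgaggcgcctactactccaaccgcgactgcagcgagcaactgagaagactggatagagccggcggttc
Atf3: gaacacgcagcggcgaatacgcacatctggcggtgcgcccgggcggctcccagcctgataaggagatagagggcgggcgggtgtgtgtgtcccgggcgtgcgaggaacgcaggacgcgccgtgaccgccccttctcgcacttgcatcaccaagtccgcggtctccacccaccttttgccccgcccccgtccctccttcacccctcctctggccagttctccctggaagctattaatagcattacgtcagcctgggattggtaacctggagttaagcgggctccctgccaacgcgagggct
Dusp1: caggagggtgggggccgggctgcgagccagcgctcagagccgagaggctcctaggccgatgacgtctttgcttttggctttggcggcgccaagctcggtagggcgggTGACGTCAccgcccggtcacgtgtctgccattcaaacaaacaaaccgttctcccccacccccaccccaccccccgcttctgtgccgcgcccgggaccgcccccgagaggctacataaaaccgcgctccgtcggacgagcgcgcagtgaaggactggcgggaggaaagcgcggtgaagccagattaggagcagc

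A promoter was at hand for 8 of the 10 genes, without *Egr1* and *Ier2*. The *Hspa1a* and *Hspa1b* promoters were identical at 296 of 300 positions (98.7%), and both held the heat shock pair at position -104 from the start. *Jun* also held one, at -128, and 15.1% of all 32851 promoters of this length held the pair. A cAMP response element stood at -143 in *Dusp1* and in 1.79% of all promoters. The TATA box was found in *Fos* at -33 and in *Junb* at position 1, against 13.6% of all promoters. Neither the AP-1 element (TGACTCA or TGAGTCA, 5.20% of all promoters) nor the CArG box to which serum response factor binds (1.63%) was in any of the 8 windows. These are matches of letters in these windows and not sites.

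The 10 genes were among the most abundant transcripts of these cells. Per kilobase of exon, the mean over the 28 libraries was 442 CPM for *Jun*, which ranked 42 of 19515 genes, followed by *Fos* at rank 51 and *Hspa1b* at rank 54. *Egr1* (rank 66), *Hspa1a* (90), *Junb* (95), *Atf3* (110) and *Fosb* (245) came next, and *Dusp1* and *Ier2* were lowest with ranks 467 and 582. The summed level of all 10 was 8159 CPM in untreated GFP+ stroma, with libraries from 6978 to 11191 CPM, and 9754 CPM (8128 to 11882) in untreated tdTomato+ stroma. Luminal cells of untreated mice had 6036 CPM (4863 to 7747) when GFP+ and 4109 CPM (2153 to 5895) when tdTomato+. The ranges of the untreated GFP+ stromal and luminal libraries overlapped, and the lowest single sum was that of a tdTomato+ luminal library.

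**Figure D1:**
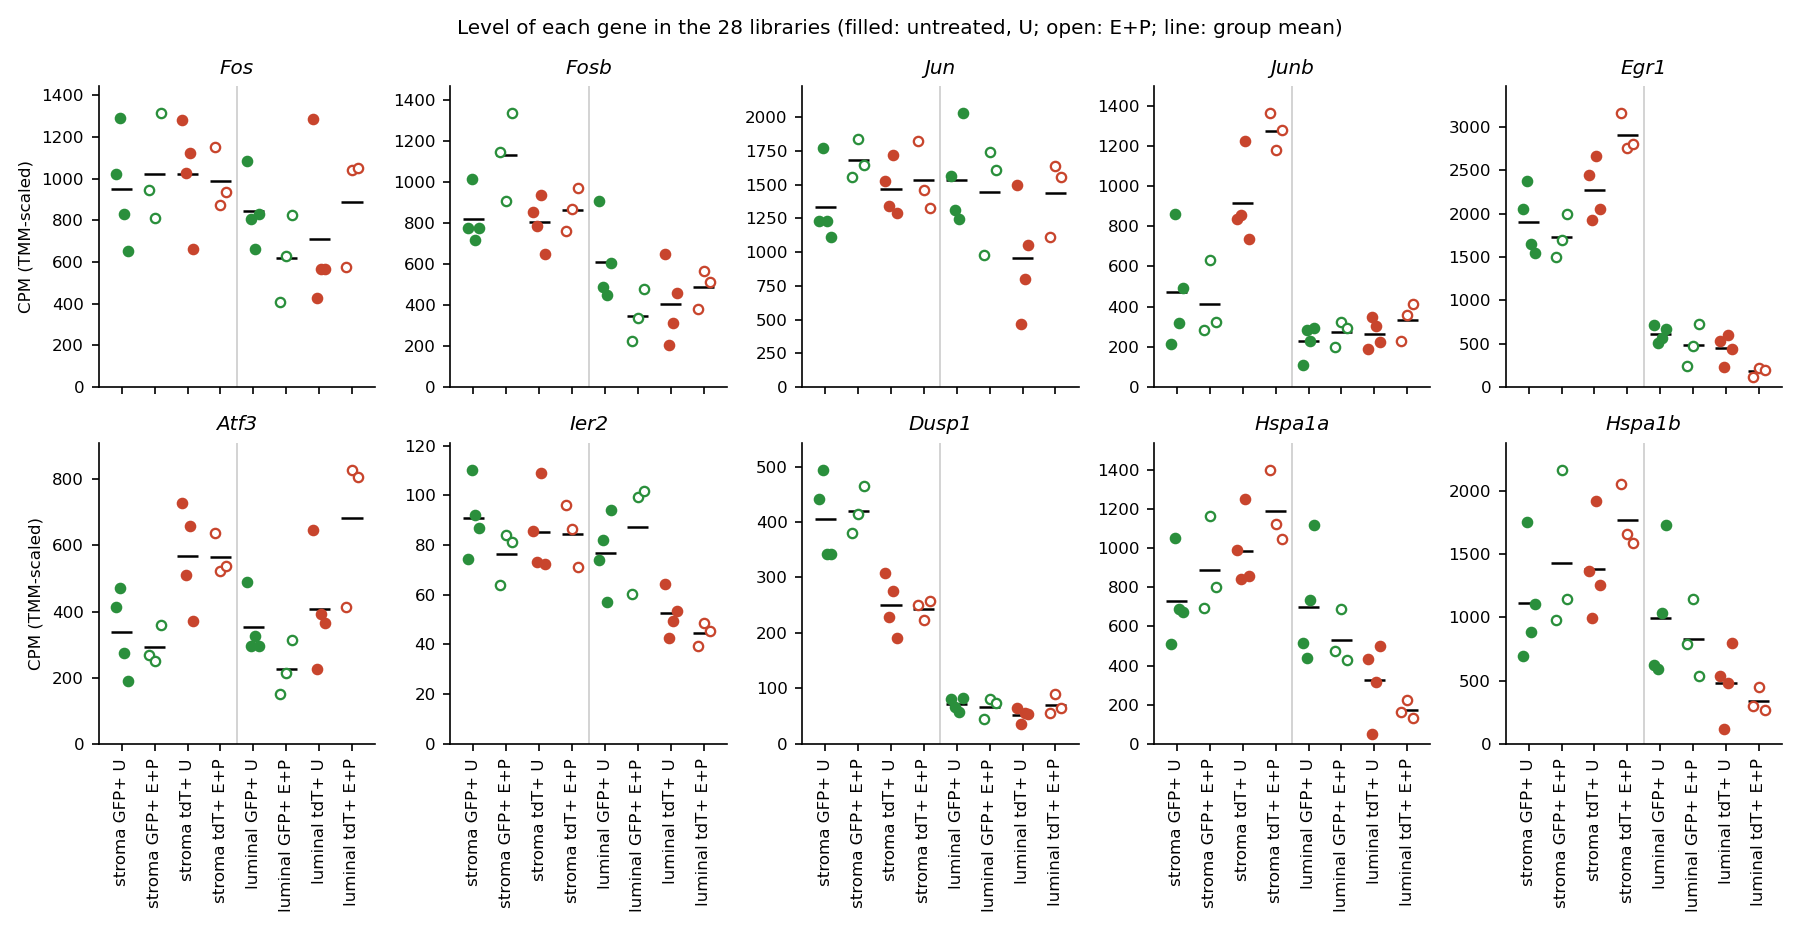
Level of each gene in CPM scaled by TMM (y axis, linear, starting at 0) in the 28 libraries of the 8 groups (x axis), with filled points for untreated mice (U), open points for E+P-treated mice, green for GFP+, red for tdTomato+ and a line at the group mean. *Egr1* and *Dusp1* separate stroma from luminal cells without overlap, *Fos*, *Jun* and *Atf3* do not, and the lowest *Hspa1a* point (48.8 CPM) is the tdTomato+ luminal library of untreated mouse 2.

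The first comparison asked how the genes differ between stroma and luminal epithelium. Of the 10, 7 were higher in stroma and none was lower at an adjusted p below 0.01, in edgeR's quasi-likelihood test over all 28 libraries with Benjamini-Hochberg adjustment over all genes tested. The step was steepest for *Egr1* and *Dusp1*, smaller for *Junb*, the HSP70 pair and *Fosb*, and slight for *Ier2*, while *Fos*, *Jun* and *Atf3* missed the threshold. These compartments differ in much of their transcriptome: 63.5% of all tested genes were called here and 33% were called higher in stroma, so the count is to be read against a high background.

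*Egr1*, the zinc finger factor, set the compartments apart most. Its CPM in untreated GFP+ stroma was 2059, 2374, 1652 and 1549 for mice 1 to 4, and in untreated tdTomato+ stroma 2449, 1930.2, 2662 and 2048. The luminal libraries of the same mice gave 719.9, 504, 569 and 671 for GFP+ cells and 528, 235, 597 and 441 for tdTomato+ cells. The lowest stromal library of the study thus lay above the highest luminal one (1498 against 727 CPM), and the log2 fold change, stroma against luminal, was 2.46 (SE 0.15, adjusted p = 5.67e-13). From the highest group mean (E+P-treated tdTomato+ stroma) to the lowest (E+P-treated tdTomato+ luminal cells), *Egr1* spanned a ratio of 16.3, the widest of the 10.

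*Dusp1*, the MAP kinase phosphatase, showed the same separation. Its CPM was 442, 493, 342 and 342 in untreated GFP+ stroma and 308, 229, 276 and 192 in untreated tdTomato+ stroma. In luminal cells it was 80.7, 66.3, 56.6 and 81.9 for GFP+ and 64.9, 35.4, 56.0 and 54.4 for tdTomato+ libraries. Stroma and epithelium did not overlap, with a log2 fold change of 2.30 (SE 0.11, adjusted p = 1.08e-15).

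*Junb* rose in stroma by a log2 fold change of 1.34 (SE 0.20, adjusted p = 2.09e-06). *Hspa1a* and *Hspa1b* rose by 1.30 (SE 0.23, adjusted p = 3.32e-05) and 1.21 (SE 0.24, adjusted p = 1.01e-04). *Fosb* rose by 0.99 (SE 0.15, adjusted p = 2.69e-06). In each of these genes and in *Ier2*, the mean of the stromal libraries of a mouse exceeded that of its luminal libraries in 7 of 7 mice, which gave p = 0.0156 in a two-sided exact permutation test, the smallest value that 7 mice allow. Over the family of 70 such tests on the members no adjusted p fell below 0.0911.

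*Ier2* changed least of the called genes, with a log2 fold change of 0.42 (SE 0.10, adjusted p = 4.37e-04). It lost its call when libraries were scaled by their totals alone (0.13, adjusted p = 0.224), a scaling that lowers every log2 fold change of stroma against luminal cells by 0.29. For *Fos* the log2 fold change was 0.39 (95% interval 0.07 to 0.71, adjusted p = 0.0373), for *Jun* 0.18 (95% interval -0.08 to 0.45, adjusted p = 0.229) and for *Atf3* 0.13 (95% interval -0.21 to 0.46, adjusted p = 0.522). Of these, *Fos* was called once the mouse was included as a block (log2 fold change 0.42, adjusted p = 0.00942) or untreated mouse 1 was left out (0.50, adjusted p = 0.00425). Mouse-wise means of *Fos* were higher in stroma in 5 of 7 mice, and those of *Jun* and *Atf3* in 3 of 7.

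Other genes of the pathway were counted from lists that did not include the members. Among other immediate early transcription factors, 22 of 25 were called, 18 higher and 4 lower in stroma, with a median log2 fold change of 1.08 against 0.02 over all tested genes. The nuclear receptor gene *Nr4a3* had 4.75 (SE 0.25, adjusted p = 5.69e-14) and *Egr2*, a relative of *Egr1*, 3.62 (SE 0.19, adjusted p = 2.12e-14). All 10 tested of the other AP-1 genes were called, 9 of them higher, led by *Fosl1* with 2.69 (SE 0.26, adjusted p = 3.52e-09). Of heat shock and chaperone genes 21 of 25 were called, 19 higher, and the largest difference was that of the HSP70 co-chaperone *Bag3*, 2.75 (SE 0.11, adjusted p = 1.36e-17).

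The MAP kinase phosphatases and Sprouty genes, the family of brakes to which *Dusp1* belongs, were all called (15 of 15) but divided in direction, 7 higher and 8 lower, with the ERK inhibitor *Spry4* highest (log2 fold change 3.67, SE 0.18, adjusted p = 3.05e-15). Genes of mRNA decay and signalling feedback were called in 16 of 22 cases, 14 higher, among them the GTPase gene *Gem* (log2 fold change 6.28, SE 0.24, adjusted p = 8.39e-17). Secreted early response genes were called in 14 of 19 cases, 12 higher, and the cytokine gene *Il6* had a log2 fold change of 9.76 (SE 0.73, adjusted p = 4.34e-11), with means of 1525 CPM in tdTomato+ stroma and 3.88 CPM in tdTomato+ luminal cells of untreated mice. Upstream factors and kinases were called in 16 of 23 cases, 11 higher and 5 lower, and ATF4 and unfolded protein response genes in 8 of 13, 7 higher, which is about the 63.5% of all genes called.

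**Figure D2:**
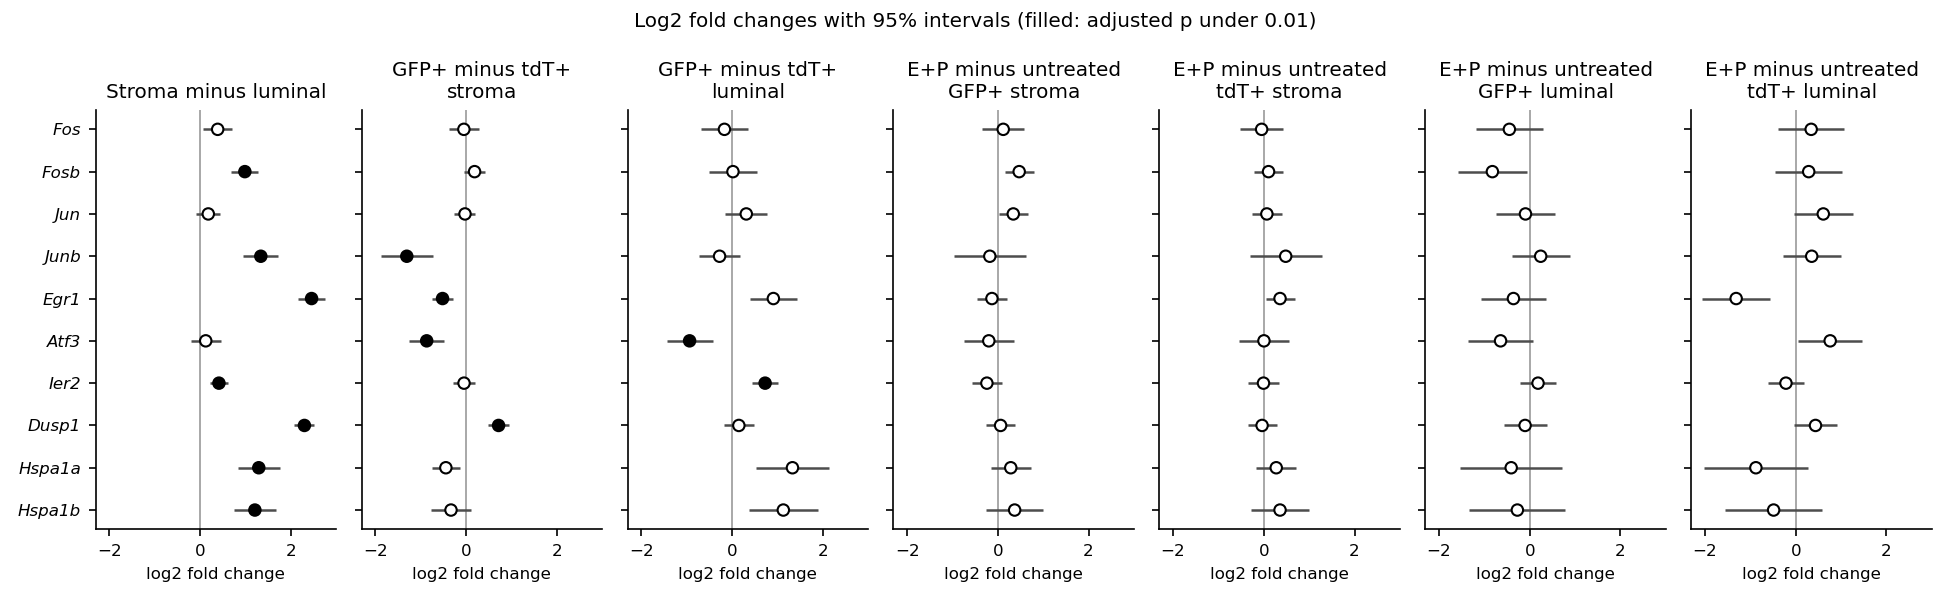
Log2 fold change of each of the 10 genes (x axis, with approximate 95% intervals as lines) in 7 comparisons (panels), filled where the adjusted p was below 0.01. All 10 values lie above 0 in stroma against luminal cells, *Dusp1* (0.72) and *Junb* (-1.30) lie on opposite sides in GFP+ against tdTomato+ stroma, and no point is filled in the 4 panels of E+P against untreated mice.

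Within stroma, the GFP+ fraction descended from *Pdgfra*-expressing cells was compared with the tdTomato+ fraction. *Dusp1* was higher in GFP+ stroma, and *Junb*, *Atf3* and *Egr1* were lower, each at an adjusted p below 0.01 (edgeR). The other 6 genes missed the threshold. Of all tested genes 42% were called, so 4 of 10 members is close to the background share.

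*Junb*, the *Jun* family member, had CPM of 212, 859, 319 and 494 in untreated GFP+ stroma and 837, 853, 1224 and 737 in untreated tdTomato+ stroma. Under E+P it had 285, 633 and 324 in GFP+ and 1361, 1178 and 1278 in tdTomato+ stroma. The fractions overlapped among untreated mice only through GFP+ library 2, at 859 CPM, and did not overlap among treated mice. The log2 fold change, GFP+ against tdTomato+, was -1.30 (SE 0.29, adjusted p = 0.00228), with lower values in GFP+ cells in 6 of 7 mice.

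*Atf3* was lower in GFP+ stroma in 7 of 7 mice. Its CPM was 415, 472, 274 and 189.7 in untreated GFP+ stroma and 727, 509, 658 and 371 in untreated tdTomato+ stroma, which overlapped, and 269, 249 and 359 against 636, 522 and 539 under E+P, which did not. The log2 fold change was -0.86 (SE 0.20, adjusted p = 0.00191). *Egr1* followed with -0.51 (SE 0.12, adjusted p = 0.0012) and was lower in GFP+ stroma in 6 of 7 mice.

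*Dusp1* went the other way. Its untreated GFP+ stroma, at 342 CPM or more, lay above every untreated tdTomato+ stromal library, at 308 CPM or less. Under E+P the values were 379.6, 415 and 464 in GFP+ and 251, 223 and 258 in tdTomato+ stroma, again apart. This gave a log2 fold change of 0.72 (SE 0.12, adjusted p = 4.60e-05), higher in GFP+ cells in 7 of 7 mice. *Dusp1* was the one of the 4 that kept its call under every alternative, and without E+P mouse 1 the calls of *Junb*, *Atf3* and *Egr1* were lost (adjusted p = 0.0187, 0.0182 and 0.0192). That of *Atf3* was also lost without E+P mouse 2 (adjusted p = 0.0126) and that of *Junb* without E+P mouse 3 (adjusted p = 0.0159). Over all alternatives the log2 fold changes stayed between -1.55 and -1.15 for *Junb*, -0.99 and -0.78 for *Atf3*, and -0.61 and -0.43 for *Egr1*.

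*Hspa1a* missed the threshold in this comparison with -0.44 (95% interval -0.76 to -0.13, adjusted p = 0.0286), as did *Hspa1b* with -0.33 (95% interval -0.78 to 0.12, adjusted p = 0.252). *Hspa1a* was called by the DESeq2 test (adjusted p = 0.00847), with scaling by library size alone (0.00800), without the filter on low counts (0.00239) and without untreated mouse 2 (0.00298). For *Fos* the difference was -0.04 (95% interval -0.38 to 0.29, adjusted p = 0.846), for *Jun* -0.02 (95% interval -0.25 to 0.21, adjusted p = 0.903), for *Fosb* 0.19 (95% interval -0.03 to 0.42, adjusted p = 0.175) and for *Ier2* -0.04 (95% interval -0.28 to 0.19, adjusted p = 0.797). The intervals of *Fos*, *Jun* and *Ier2* stayed within 0.40 log2 units of 0.

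The called heat shock, unfolded protein response and feedback genes were mostly lower in GFP+ stroma. Of heat shock and chaperone genes 17 of 25 were called, 15 of them lower, with a median log2 fold change of -0.40 against -0.01 over all tested genes. The HSP40 gene *Dnajb1*, a partner of HSP70, averaged 229 CPM in the GFP+ and 872 CPM in the tdTomato+ stroma of untreated mice, a log2 fold change of -1.86 (SE 0.15, adjusted p = 1.73e-08). ATF4 and unfolded protein response genes were called lower in 10 of 13 cases and higher in none, led by the mTORC1 inhibitor gene *Ddit4* (log2 fold change -4.07, SE 0.21, adjusted p = 2.63e-10). Genes of mRNA decay and signalling feedback were called in 16 of 22 cases, 14 lower, and other immediate early transcription factors in 17 of 24, 11 lower and 6 higher.

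Among single genes, the nuclear receptor gene *Nr4a3* averaged 219 CPM in GFP+ stroma of untreated mice against 1206 CPM in their tdTomato+ stroma, -2.62 (SE 0.20, adjusted p = 2.83e-08) on the log2 scale. The AP-1 gene *Fosl2* was at 384 and 1492 CPM (log2 fold change -2.17, SE 0.14, adjusted p = 9.64e-10), and of the other AP-1 genes 5 of 10 were called, 2 higher and 3 lower. *Il6* was at 225 and 1525 CPM, although 8 of the 12 called secreted genes were higher in GFP+ stroma, as was the endothelin gene *Edn1* (log2 fold change 3.98, SE 0.60, adjusted p = 9.18e-05). The brakes divided here too: *Dusp1* was higher in GFP+ stroma, but among other MAP kinase phosphatases and Sprouty genes 8 of 14 were called and 6 of those were lower, with *Spry4* at 34.8 against 242 CPM.

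These fractions also differed in the cells they held. All 8 tested skeletal muscle markers were called lower in GFP+ stroma, and their sum ran from 2401 to 12424 CPM over the untreated tdTomato+ libraries and from 9.39 to 13.6 CPM over the untreated GFP+ libraries, with *Acta1* the most abundant at 2098 CPM in the former. All 10 pericyte and smooth muscle markers were lower in GFP+ stroma as well, with sums of 6956 to 9979.6 against 177 to 317 CPM and *Myh11* the most abundant. All 9 fibroblast markers were higher in GFP+ stroma, with sums of 32706 to 62009.6 against 2357 to 6636 CPM and *Col3a1* the most abundant. None of these markers was at 0 in either fraction of untreated mice. Mitochondrial transcripts took 4.67% of counts in untreated GFP+ and 9.24% in untreated tdTomato+ stroma, and 12 of 14 were called lower in GFP+ cells. The nuclear RNA *Malat1* averaged 26126 and 50444 CPM and *Neat1* 961 and 4587 CPM in these fractions. Of 6 tested endothelial markers 5 were called lower in GFP+ stroma. Of 6 tested macrophage and dendritic markers 4 were lower, with sums of 5.89 against 46.5 CPM in untreated mice. Satellite cell markers were called lower in 4 of 5 cases and T, B and mast cell markers in 2 of 3. No marker of these lists was called higher. The part of these differences in the levels of the 10 genes was not tested.

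**Figure D3:**
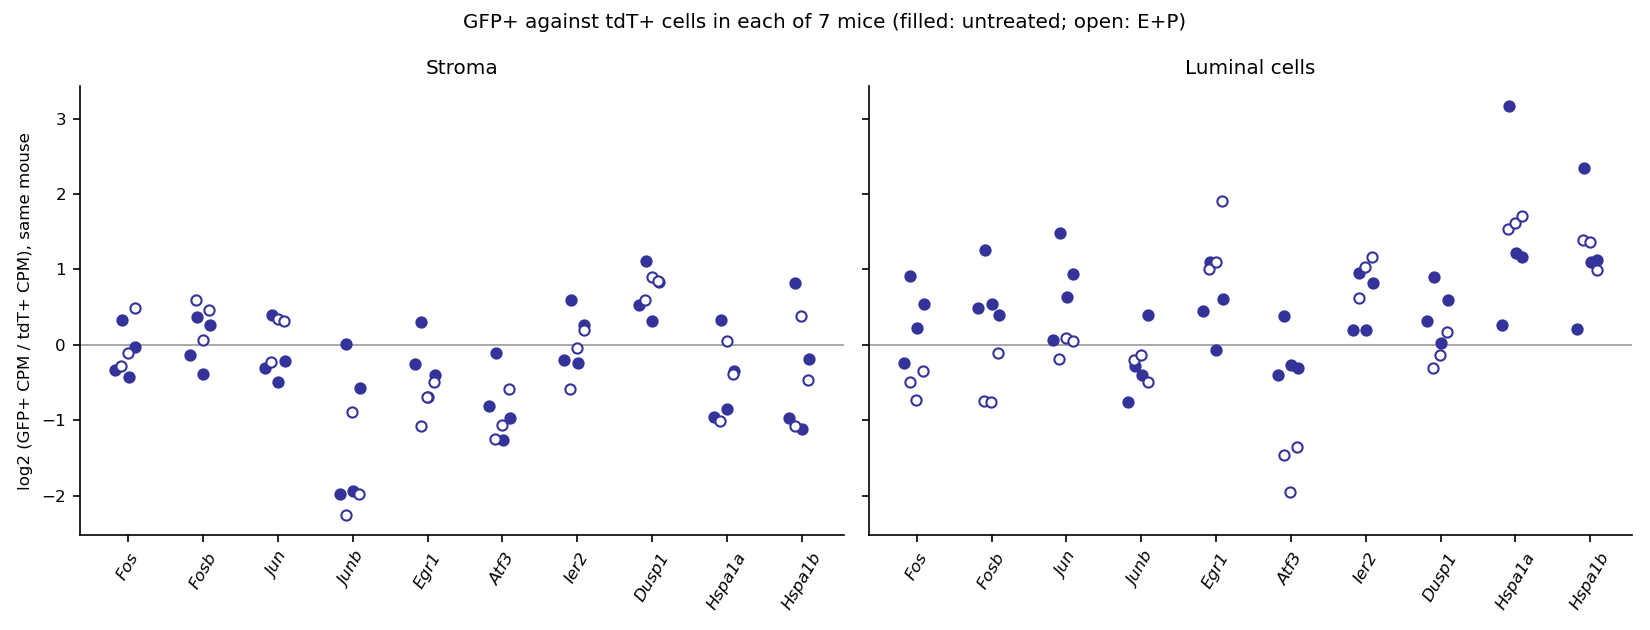
Log2 ratio of CPM in GFP+ over tdTomato+ cells of the same mouse (y axis) for each gene (x axis), in stroma on the left and luminal cells on the right, with 1 point for each of 7 mice (filled untreated, open E+P). In stroma all 7 points of *Dusp1* lie above 0 and all 7 of *Atf3* below, whereas in luminal cells all 7 points of *Ier2*, *Hspa1a* and *Hspa1b* lie above 0.

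In luminal epithelium, the question was how cells with a *Pdgfra*-expressing ancestor differ from their tdTomato+ neighbours. *Ier2* was higher and *Atf3* was lower in GFP+ luminal cells at an adjusted p below 0.01 (edgeR), against 34.7% of all genes called. *Egr1*, *Hspa1a* and *Hspa1b* had higher means in GFP+ cells and missed the threshold. With the mouse as a block they were called too, which raised the count from 2 to 5, where 5899 of all 16538 genes were called. The pairing is that of the sort, since both fractions came from the same gland.

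*Ier2* had CPM of 74.0, 82.0, 56.9 and 93.9 in untreated GFP+ and 64.4, 42.5, 49.5 and 53.4 in untreated tdTomato+ luminal cells, and 60.4, 99.2 and 102 against 39.2, 48.7 and 45.3 under E+P. The untreated fractions overlapped and the treated ones did not. Its log2 fold change was 0.73 (SE 0.14, adjusted p = 7.70e-04), in the same direction in 7 of 7 mice, and it was called under every alternative.

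*Atf3* stood at the edge of the threshold. Its CPM was 489, 297, 327 and 296 in untreated GFP+ and 647, 227, 393 and 367 in untreated tdTomato+ luminal cells, which overlapped widely. Under E+P it was 149.6, 214 and 314 in GFP+ and 414, 827 and 807 in tdTomato+ cells, without overlap. The log2 fold change of -0.93 (SE 0.26, adjusted p = 0.00999) lost its call under 8 of 15 alternatives, with adjusted p between 0.000179 and 0.0630 over them. Its size stayed between -1.03 and -0.79 over the same alternatives.

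For *Hspa1a* the tdTomato+ luminal libraries of untreated mice held 431, 48.8, 316 and 499 CPM, and the GFP+ libraries 516, 436, 735 and 1119 CPM. Under E+P the values were 164, 224 and 131 in tdTomato+ and 474, 686 and 428 in GFP+ cells, apart by a wide margin. The GFP+ level was higher in 7 of 7 mice for *Hspa1a* and for *Hspa1b*, with log2 fold changes of 1.34 (SE 0.41, adjusted p = 0.0174) and 1.13 (SE 0.38, adjusted p = 0.0282). With the mouse block these became 1.49 (adjusted p = 0.00642) and 1.19 (adjusted p = 0.00411), and *Egr1* went from 0.91 (SE 0.26, adjusted p = 0.012) to 0.90 (adjusted p = 0.00164). Without the tdTomato+ luminal library of untreated mouse 2, which held the 48.8 CPM, *Hspa1a* had a log2 fold change of 1.16 and was called (adjusted p = 0.00195).

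The remaining genes missed the threshold, with differences of -0.16 (95% interval -0.68 to 0.35, adjusted p = 0.639) for *Fos*, 0.02 (95% interval -0.50 to 0.55, adjusted p = 0.952) for *Fosb*, 0.32 (95% interval -0.15 to 0.78, adjusted p = 0.294) for *Jun*, -0.27 (95% interval -0.73 to 0.18, adjusted p = 0.364) for *Junb* and 0.15 (95% interval -0.18 to 0.49, adjusted p = 0.486) for *Dusp1*. Among the wider lists, 5 of 25 heat shock and chaperone genes were called, 2 higher and 3 lower, with a median log2 fold change of 0.33 against 0.00149 over all tested genes, and the small heat shock gene *Cryab* was higher (log2 fold change 1.92, SE 0.32, adjusted p = 3.88e-04). Other immediate early transcription factors were called in 8 of 23 cases, 6 higher, close to the 34.7% of all genes, including *Egr3* (log2 fold change 2.18, SE 0.38, adjusted p = 4.48e-04), while the HLH inhibitor gene *Id3* was lower (log2 fold change -2.59, SE 0.36, adjusted p = 1.01e-04). Feedback genes were called in 10 of 22 cases, 8 of them lower, with the cytokine signalling inhibitor gene *Socs3* at -1.71 (SE 0.25, adjusted p = 1.51e-04). MAP kinase phosphatases and Sprouty genes were called in 11 of 14 cases, above the 34.7% of all genes, but divided, 6 higher and 5 lower. Secreted early response genes were called in 10 of 18 cases, 7 higher and 3 lower.

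The luminal fractions differed in their markers. All 6 hormone-sensing markers were lower in GFP+ cells, with sums of 283 to 1831 CPM over untreated GFP+ and 3777 to 5583 CPM over untreated tdTomato+ libraries and *Prlr* the most abundant. Of 6 luminal progenitor markers 5 were higher in GFP+ cells, with sums of 1944 to 3175 against 224 to 884 CPM and *Kit* the most abundant. None of these markers was at 0 in either fraction of untreated mice. Markers of other cells were also called higher in GFP+ luminal cells: 2 of 3 tested Schwann markers, with sums of 195 against 47.6 CPM in untreated mice, 3 of 8 pericyte and smooth muscle markers, 2 of 8 fibroblast markers and 2 of 5 basal markers. *Malat1* averaged 19315 against 28793 CPM. The part of these differences in levels of the 10 genes was not tested.

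The difference between GFP+ and tdTomato+ cells was itself compared between stroma and epithelium. For 3 genes it was lower in stroma than in luminal cells at an adjusted p below 0.01 (edgeR, interaction term): *Hspa1a* with a difference of -1.79 (SE 0.46, adjusted p = 0.00308), *Egr1* with -1.44 (SE 0.29, adjusted p = 2.90e-04) and *Ier2* with -0.79 (SE 0.19, adjusted p = 0.00178), against 33.2% of all genes called. *Egr1* was thus lower in GFP+ than tdTomato+ stroma while its mean was higher in GFP+ than tdTomato+ luminal cells. *Ier2* differed between the fractions in luminal cells and had a log2 fold change of -0.04 in stroma. *Atf3* had an interaction of 0.05 (95% interval -0.61 to 0.72, adjusted p = 0.97), with a lower level in GFP+ cells of both compartments. *Hspa1b* (log2 fold change -1.47, SE 0.47, adjusted p = 0.0147), *Junb* (log2 fold change -1.04, SE 0.39, adjusted p = 0.0337) and *Dusp1* (log2 fold change 0.55, SE 0.21, adjusted p = 0.038) missed the threshold. With the mouse as a block *Junb* was called (-1.15, adjusted p = 0.00473), and without untreated mouse 2 both *Junb* and *Hspa1b* were (adjusted p = 0.00813 and 0.00129). The call of *Ier2* was lost without E+P mouse 2 (adjusted p = 0.0108). That of *Hspa1a* was lost without untreated mouse 3 (adjusted p = 0.0152), without E+P mouse 1 (0.0313), 2 (0.0109) or 3 (0.0176), and without the filter on low counts (0.0112), while *Egr1* was called under all 15 alternatives. Over all alternatives the interaction stayed between -1.99 and -1.61 for *Hspa1a* and between -0.98 and -0.73 for *Ier2*.

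The same interaction was called for 13 of 25 heat shock and chaperone genes, 11 of them lower, with a median of -0.77 against -0.08 over all tested genes. It was called for 10 of 25 other immediate early transcription factors, 7 lower, led by *Nr4a2* (log2 fold change -4.02, SE 0.27, adjusted p = 2.02e-11), and for 13 of 22 feedback genes, 10 lower. Of the other AP-1 genes 3 of 10 were called, near the 33.2% of all genes, with *Fosl2* at -2.63 (SE 0.19, adjusted p = 3.26e-11). Upstream factors and kinases were called in 15 of 23 cases, 6 higher and 9 lower. The interaction was also called lower for 11 of 14 mitochondrial transcripts, 9 of 10 pericyte and smooth muscle markers and 4 of 6 luminal progenitor markers. It was called higher for 3 of 6 hormone-sensing markers. The part of these lists in the values of the members was not tested.

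E+P was compared with no treatment in each of the 4 sorted populations. None of the 10 genes was called in any of them, by edgeR's quasi-likelihood test at an adjusted p below 0.01. The share of all genes called was 0.231% in GFP+ stroma, 0.124% in tdTomato+ stroma, 5.96% in GFP+ luminal cells and 14.1% in tdTomato+ luminal cells. At an unadjusted p below 0.05 the counts were 1 of 10 in GFP+ stroma, 1 in tdTomato+ stroma, 0 in GFP+ luminal cells and 1 in tdTomato+ luminal cells. Over all tested genes the same cut held for 1429 of 17783 in GFP+ stroma, 2780 of 17783 in tdTomato+ stroma, 4940 of 16538 in GFP+ luminal cells and 6446 of 16538 in tdTomato+ luminal cells. By the DESeq2 test 1 of the 10 genes was called, *Egr1* in tdTomato+ luminal cells, and none in the other populations. Over all genes that test called 3558 of 16538 in tdTomato+ luminal cells and 2035 of 16538 in GFP+ luminal cells. In GFP+ stroma it called 192 of 17783 and in tdTomato+ stroma 384 of 17783.

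*Egr1* was the 1 gene whose treated and untreated libraries did not overlap in a population, and it did so in opposite directions in the tdTomato+ ones. In GFP+ stroma and GFP+ luminal cells no member was apart, against 12.2% and 24.3% of all kept genes. In tdTomato+ luminal cells its CPM was 528, 235, 597 and 441 in untreated and 118, 222 and 195 in treated mice, with every treated library below every untreated one. Its log2 fold change was -1.31 (SE 0.38, adjusted p = 0.0234). Without the library of untreated mouse 2, at 235 CPM, it was -1.53 and was called (adjusted p = 0.00815), and over all alternatives the adjusted p ran from 0.00129 to 0.0773. Among all kept genes, 31.4% had treated and untreated libraries apart in this population.

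In tdTomato+ stroma *Egr1* was 2449, 1930.2, 2662 and 2048 CPM in untreated and 3157, 2754 and 2807 CPM in treated mice, so that every treated library lay above. The log2 fold change was 0.36 (SE 0.16, adjusted p = 0.299) at an unadjusted p of 0.0422, and 10.1% of all kept genes had libraries apart here. With 3 against 4 mice a two-sided exact permutation test cannot go below p = 0.0571, which both comparisons reached. Whether the response of *Egr1* to E+P differed between GFP+ and tdTomato+ cells was tested within each compartment and passed in neither: -0.49 (SE 0.23, adjusted p = 0.478) in stroma, where 0.045% of all genes were called, and 0.95 (SE 0.52, adjusted p = 0.313) in luminal cells, where 2.27% were called.

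Whether the response differed between stroma and luminal cells was tested over both fractions together. *Egr1* had the largest difference of the 10, 0.95 (SE 0.29, adjusted p = 0.0357), stroma minus luminal, and no member was called against 5.13% of all genes. Without the tdTomato+ luminal library of untreated mouse 2, *Egr1* had 1.06 with an adjusted p of 0.00895. Without all 4 libraries of untreated mouse 2, *Hspa1a* was the 1 member called, where 854 of all 19483 tested genes were called.

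*Fosb* gave the other value of note in stroma. Its CPM in GFP+ stroma was 775, 1016, 715 and 776 in untreated and 1147, 907 and 1335 in treated mice, which overlapped, with a log2 fold change of 0.47 (SE 0.16, adjusted p = 0.306). In GFP+ luminal cells *Fosb* was 906, 486, 449.9 and 603 CPM untreated and 226, 335 and 475 CPM treated (log2 fold change -0.82, SE 0.38, adjusted p = 0.174). In luminal cells *Atf3* had -0.64 (SE 0.37, adjusted p = 0.269) in GFP+ and 0.76 (SE 0.36, adjusted p = 0.138) in tdTomato+ cells. The difference between those responses was -1.40 (SE 0.51, adjusted p = 0.127) and was called with the mouse as a block (-1.47, adjusted p = 0.00493).

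For the HSP70 genes the E+P log2 fold changes in tdTomato+ luminal cells were -0.88 (95% interval -2.02 to 0.26, adjusted p = 0.291) for *Hspa1a* and -0.49 (95% interval -1.55 to 0.58, adjusted p = 0.543) for *Hspa1b*, with intervals that are wide. In tdTomato+ stroma, where the median spread over the 10 genes was lowest, *Fos* had -0.05 (95% interval -0.52 to 0.42, adjusted p = 0.95), *Jun* 0.07 (95% interval -0.26 to 0.39, adjusted p = 0.884) and *Ier2* -0.01 (95% interval -0.34 to 0.33, adjusted p = 0.991). Over the 4 populations the values of *Dusp1* lay between -0.10 and 0.44 and those of *Ier2* between -0.24 and 0.18.

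Related genes were called for E+P in small numbers, which are to be read against the shares of all genes given above. In GFP+ stroma, *Egr2* rose (log2 fold change 1.44, SE 0.23, adjusted p = 0.00527), from 74.5 to 201 CPM, and was the 1 called gene of its list. In tdTomato+ luminal cells 4 of 23 other immediate early transcription factors were called, 3 higher, against 14.1% of all genes, with *Klf6* at 1.19 (SE 0.24, adjusted p = 0.00311) and *Klf2* at 2.44 (SE 0.45, adjusted p = 0.00183). The kinase gene *Sgk1*, a target of steroid receptors, rose there to 479 CPM (log2 fold change 1.97, SE 0.23, adjusted p = 6.41e-05). In GFP+ luminal cells the kinase gene *Sik1* fell from 488 to 236 CPM (log2 fold change -1.05, SE 0.14, adjusted p = 6.18e-04).

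Marker sums differed between treated and untreated mice too. In tdTomato+ luminal cells the luminal progenitor sum was 582 CPM in untreated and 169 CPM in treated mice, with 3 of 6 markers called lower, and the hormone-sensing sum 4425 and 2459 CPM, with 1 of 6 called lower. The basal sum there was 12.3 and 46.6 CPM, with 2 of 5 called higher. Of fibroblast markers 1 was called higher and 1 lower, 1 macrophage and dendritic marker was called higher, and *Malat1* averaged 28793 and 34924 CPM. In GFP+ luminal cells the hormone-sensing sum was 927 and 205 CPM, with 3 of 6 called lower, and the mitochondrial share 8.35% and 14.7%. *Malat1* averaged 19315 and 10417 CPM in these cells, and 1 macrophage and dendritic marker was called lower. In tdTomato+ stroma the skeletal muscle sum was 7448 and 13508 CPM and the luminal epithelial sum 223 and 25.7 CPM, with no marker of either list called. The endothelial sum was 66.5 and 182 CPM with no marker called, *Malat1* averaged 50444 and 33134 CPM, and the hormone-sensing sum 225 and 44.8 CPM with 1 of 6 called lower. In GFP+ stroma the luminal epithelial sum was 42.8 and 5.87 CPM and the adipocyte sum 127 and 44.8 CPM, with no marker of either list called. The hormone-sensing sum there was 137 and 75.3 CPM and the pericyte and smooth muscle sum 229 and 160.3 CPM, each with 1 marker called lower. Their part in the values of the 10 genes was not tested.

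Between libraries of the same group the members varied more than most genes. The pooled SD of log2 CPM within groups was 0.71 for *Hspa1a*, at the 90.4th percentile of 9148 genes with a mean of at least 10 CPM, and 0.68 for *Hspa1b*, against a median of 0.25 over those genes. Without the tdTomato+ luminal library of untreated mouse 2 these were 0.40 (76.4th percentile) and 0.51 (84.1st percentile), below the 0.54 of *Junb*. Over all 28 libraries *Junb* followed with 0.54 (84.3rd percentile), and *Ier2* had the smallest spread with 0.27 (54.6th percentile). The other 6 lay between 0.30 for *Dusp1* and 0.48 for *Atf3*. By population, the median SD over the 10 genes was 0.33 in GFP+ stroma, 0.25 in tdTomato+ stroma, 0.46 in GFP+ luminal cells and 0.59 in tdTomato+ luminal cells, while that of all genes was 0.20, 0.29, 0.21 and 0.21. In tdTomato+ stroma the members were thus no more variable than other genes.

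A single library carried much of the spread in tdTomato+ luminal cells. The tdTomato+ luminal library of untreated mouse 2 lay below its group mean for 9 of 10 genes, with deviations of -2.30 log2 units for *Hspa1a*, -1.76 for *Hspa1b*, -0.91 for *Jun* and -0.86 for *Egr1*. Its *Hspa1a* level was 48.8 CPM, against 316 to 499 CPM in the other 3, and its *Hspa1b* level 117 CPM, against 483 to 796 CPM. *Junb* alone lay above the mean, by 0.44. Without that library the median SD in tdTomato+ luminal cells was 0.38, against 0.19 for all genes. The library had 15130601 counts and 20298 detected genes, where the other 3 had 20857 to 22303 genes. Its 10 luminal markers summed to 7289.7 CPM, within the 7026 to 7577 CPM of the other 3. Its hormone-sensing markers summed to 5583 CPM, against 3777 to 4420 CPM. Its luminal progenitor markers summed to 224 CPM, against 554 to 884 CPM, and its Schwann markers to 25.5 CPM, against 47.3 to 67.5 CPM. The part of these measures in its low values was not tested.

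The low values were not shared by all libraries of the mouse. GFP+ stroma of the same mouse had the highest mean deviation of all 28 libraries (0.51), with 10 of 10 genes above their group means, led by *Junb* (1.06) and *Hspa1b* (0.75). The mean deviation of its tdTomato+ stroma was -0.14 and that of its GFP+ luminal cells -0.18. In both of these populations its *Hspa1a* and *Hspa1b* levels were the lowest of the 4 untreated mice. They were 841 and 991 CPM in tdTomato+ stroma and 436 and 591 CPM in GFP+ luminal cells. The tdTomato+ luminal library of untreated mouse 1 was high (0.51, 9 of 10 genes above), with *Fos* at 1286 CPM against 427 to 569 CPM in the other 3. E+P mouse 1 was low in 3 of its 4 libraries, with -0.46 in GFP+ luminal, -0.36 in tdTomato+ luminal and -0.21 in GFP+ stromal cells. A test for differences between mice within a treatment called none of the members, against 0.0715% of all genes (edgeR), with unadjusted p = 0.0326 for *Fos*, 0.0168 for *Junb* and 0.0204 for *Atf3*, where 2067 of 19569 tested genes had an unadjusted p below 0.05.

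**Figure D4:**
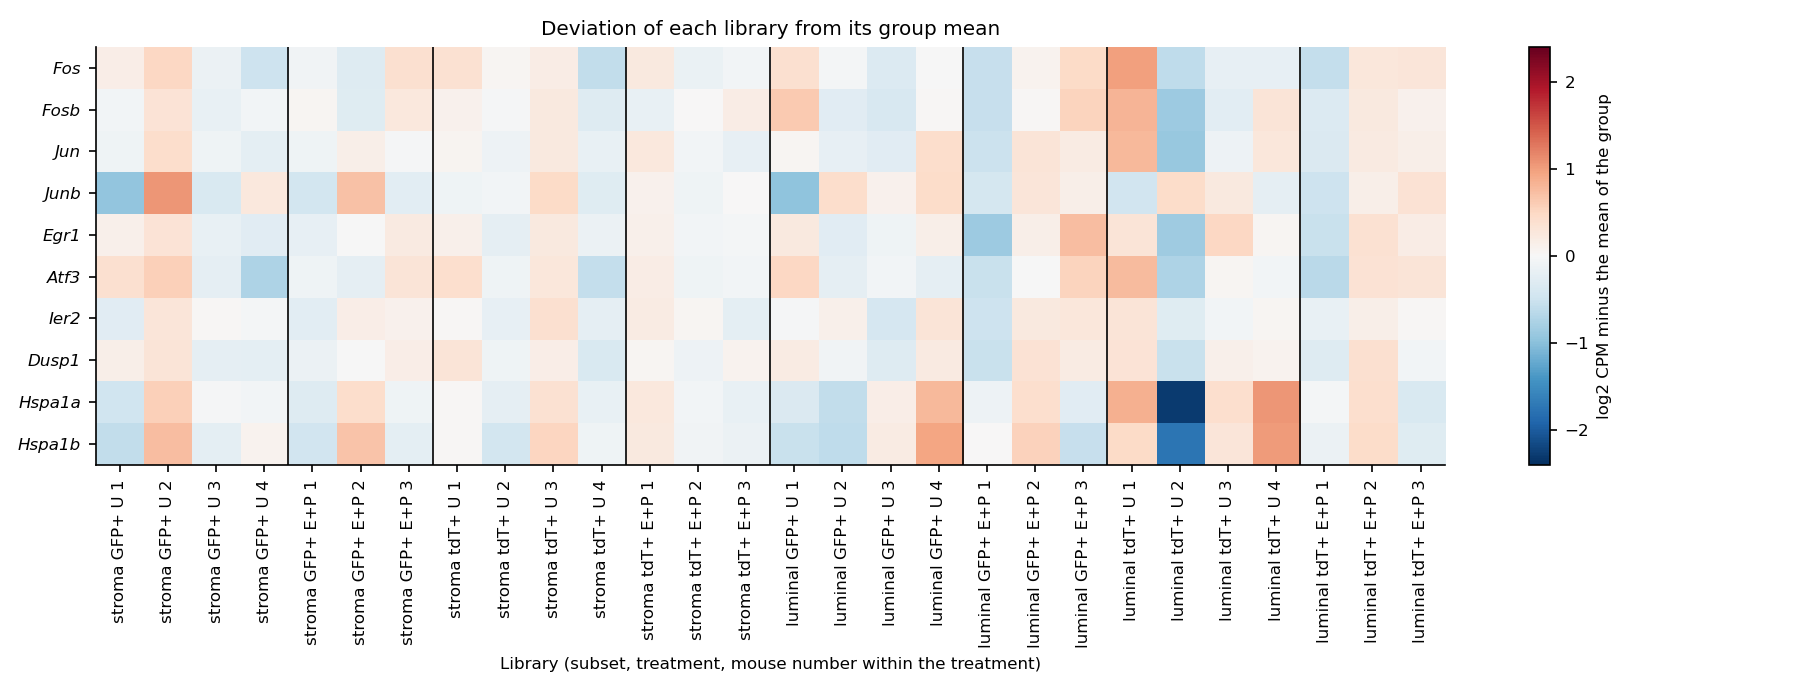
Deviation of each of the 28 libraries (x axis) from the mean of its group for each gene (y axis), as log2 CPM minus the group mean, red above and blue below. The darkest cells belong to *Hspa1a* and *Hspa1b* in the tdTomato+ luminal library of untreated mouse 2 (-2.30 and -1.76), and the GFP+ stromal library of the same mouse is red for all 10 genes.

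Pooled over the 28 libraries most of the genes varied together, and *Junb* least. Of 45 pairs of members 42 had a positive Pearson correlation of their deviations from group means over the 28 libraries, with a median r of 0.59. These are descriptions: the points share libraries, 4 libraries share a mouse, and the correlations carry no test. *Fos* and *Atf3* had r = 0.94, *Egr1* and *Dusp1* 0.85, and *Fos* and *Fosb* 0.83. *Hspa1a* and *Hspa1b* had r = 0.95, and 75-base windows are shared between their transcripts. *Hspa1a* had r = 0.33 with *Fos* but 0.77 with *Jun*. *Junb* ranged from -0.17 with *Fosb* to 0.45 with *Ier2*, which pools unlike populations of 7 libraries each. With the other members its r ran from -0.03 to 0.98 in GFP+ stroma, with 0.95 for *Hspa1a* and 0.98 for *Hspa1b*, and from 0.55 to 0.83 in tdTomato+ stroma. In luminal cells it ran from -0.32 to 0.48 when GFP+ and from -0.61 to -0.03 when tdTomato+. Without the tdTomato+ luminal library of untreated mouse 2, 41 pairs were positive with a median of 0.54, and the values of the *Fos* and *Atf3* pair (0.94) and the HSP70 pair (0.96) hardly moved.

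**Figure D5:**
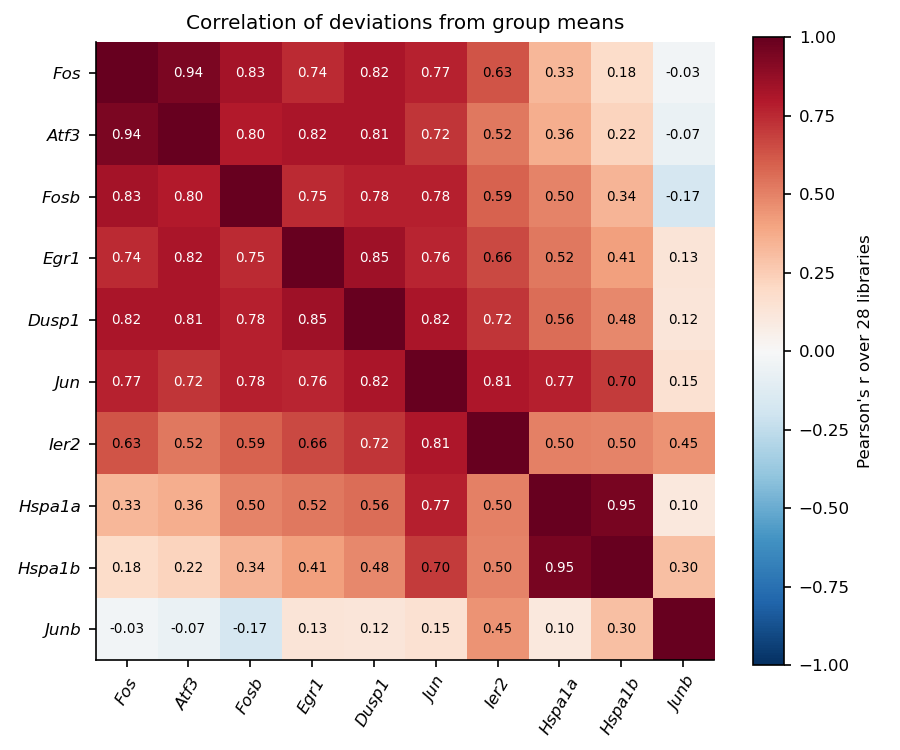
Pearson correlation (colour scale from -1 to 1, value in each cell) between the deviations from group means of each pair of genes over 28 libraries. *Fos*, *Atf3*, *Fosb*, *Egr1*, *Dusp1* and *Jun* form a block with r of at least 0.72, *Hspa1a* and *Hspa1b* form a pair (0.95), and the row of *Junb* is palest, with r up to 0.45.

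Other genes were ranked by their likeness to this pattern. Over 9138 genes other than the members with a mean of at least 10 CPM, the mean deviation of the members was followed most closely by *Ccn1* (r = 0.85), which encodes a secreted matrix protein, *Hspb1* (0.83), a small heat shock protein, *Nr4a1* (0.80), an immediate early nuclear receptor, and *Dnajb1* (0.80). *Insig1*, *Psap*, *C130074G19Rik*, *Galnt4*, *Sertad4* and *Rhob* completed the first 10, with r between 0.76 and 0.80. Of the 10, 5 stood on the pathway lists, which held 145 of the 9138 genes (1.59%). The ranking rests in part on 1 library: without the tdTomato+ luminal library of untreated mouse 2, *Nr4a1* led (0.82), *Ccn1* had 0.73, *Hspb1* 0.71 and *Insig1* 0.69, and *Dnajb1*, *Psap*, *C130074G19Rik*, *Galnt4*, *Sertad4* and *Rhob* were not among the first 10. *Junb* was followed most closely by *Cebpb* (r = 0.89), *Egr1* by *Btg2* (0.85) and *Jun* by *Ccn1* (0.85). For the level over all libraries in place of the deviation, the closest genes included *Ifrd1* (r = 0.93), *Gucy1a2*, *Tubb6* and *Zfp36*.

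Measures of the libraries moved with these deviations to some extent. The mean deviation of the members had r = 0.49 with the total count and 0.56 with the number of genes detected over the 28 libraries, -0.01 with the mitochondrial share and 0.16 with the share of the 10 most abundant genes. *Junb* had r = -0.58 with the nuclear RNA *Malat1* and -0.51 with *Neat1*, where the mean of all members had -0.09 and -0.04. Among marker lists, the luminal progenitor sum had r = 0.52 and the adipocyte sum 0.47 with the mean deviation. The part of these measures in the levels was not tested.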

How the data were processed

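Libraries were prepared with a SMARTer stranded total RNA pico kit from 2 ng of RNA and sequenced with paired reads of 75 bases. Per the submitters' processing notes and the study, reads were aligned with STAR 2.5.2a to GRCm38.p5 with a GENCODE annotation, and the authors deposited raw gene counts, not normalized. The annotation release and the strand setting are not given in the sources used here. IDs were matched to GENCODE M21, which held 50376 of 50600.

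Counts were tested with edgeR 4.0.16 in R 4.3.3 (TMM scaling, filterByExpr, robust quasi-likelihood fit, adjusted p below 0.01, SE from the F statistic), checked on simulated data. The 95% intervals are approximate, from a normal cut-off on that SE. They are somewhat narrow, so that some exclude 0 where the unadjusted p of the edgeR test was above 0.05. Exact tests were two-sided. CPM are TMM-scaled. Alternatives used limma-voom (limma 3.58.1), DESeq2 1.42.0, other scalings, filters and thresholds, a mouse block, and single mice left out. Same-numbered libraries come from the same mouse within a treatment: GFP+ and tdTomato+ deviations of a mouse correlated with a mean r of 0.138 in stroma and 0.208 in luminal cells, against -0.055 and -0.078 between mice.

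The members and lists were chosen with earlier results of these data known. Named genes were the members, the 2 largest called changes of each list at 10 CPM or more, and the 10 and 5 genes most like the members. Some genes that this rule names are not reported here. No column of another series was present.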

Additional observations from a re-analysis of the deposited data

Results flagged for a closer look

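Each member was checked in each group of 4 untreated libraries, which gave 40 checks. In 2 of them the highest value stood apart from the others by Dixon's criterion. Independent checks meet it by chance in about 1 of 20 cases, whereas these checks share libraries and mice. *Fos* was at 1286 CPM in the tdTomato+ luminal library of untreated mouse 1, where the next highest was 569 CPM. *Atf3* was at 489 CPM in the GFP+ luminal library of the same mouse, where the next highest was 327 CPM.

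The difference between GFP+ and tdTomato+ cells differed between stroma and luminal cells by a test of the interaction (edgeR, adjusted p below 0.01) for *Egr1*, with -1.44 on the log2 scale, for *Ier2*, with -0.79, and for *Hspa1a*, with -1.79.

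*Egr1* differed between E+P and untreated mice with opposite signs in the tdTomato+ populations, and neither difference was called. Every treated library was above every untreated one in stroma (0.36 as the difference of mean log2 CPM) and below in luminal cells (-1.30), where 10.1% and 31.4% of all kept genes had treated and untreated libraries apart. That difference was not tested within tdTomato+ cells. Over both fractions the difference between stroma and luminal cells had an adjusted p of 0.0357 (edgeR).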

How the results depend on the processing

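Of 431 alternative values for 29 log2 fold changes of the members, 370 kept their side of the threshold, 20 lost the call, 41 gained it and 0 changed sign. Of 179 alternative counts of members called, 156 stayed within 1.5 times of the count reported. In GFP+ against tdTomato+ luminal cells the count was 2, and 1 with DESeq2 size factors or no filter on low counts, 4 with limma-voom, 5 with the DESeq2 test, with an adjusted p of 0.05 or with the replicate block, and 1 to 3 when a mouse was left out. Of all 16538 genes, 5745 were called there, 5820 with limma-voom, 6707 by the DESeq2 test, 7983 at an adjusted p of 0.05 and 5899 with the block. In stroma the same count was 4, and 1 to 5 when a mouse was left out. The interaction of fraction and compartment had 3 calls, 5 with library size alone or limma-voom, 6 at an adjusted p of 0.05 and 1 to 5 with a mouse left out. Of all 19569 genes, 6502 were called for it, 6597 with library size alone, 7256 with limma-voom and 8570 at an adjusted p of 0.05. For E+P in tdTomato+ luminal cells the count of 0 became 1 by the DESeq2 test or at an adjusted p of 0.05, and lay at 0 to 1 with a library left out. Of all 16538 genes, 2327 were called in this comparison, 3558 by the DESeq2 test and 4444 at an adjusted p of 0.05. The interaction of compartment and E+P went from 0 to 1 at an adjusted p of 0.05 and lay at 0 to 1 with a library left out, and that of fraction and E+P in luminal cells went from 0 to 1 with the replicate block. All genes called were 2179 of 19569 for the former at an adjusted p of 0.05 and 477 of 16538 for the latter with the block. The cause of these changes was not tested. The block changed no other count of members by over 1.5 times, and pairing untreated with E+P mice by number, which are different mice, left 0 members called in each population. Leaving out the tdTomato+ luminal library of untreated mouse 2 was chosen after seeing the data.

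The groups of 3 and 4 mice limit what an E+P effect could be shown, with standard errors of 0.16 to 0.58 log2 units for the members, and 1 library (tdTomato+ luminal, untreated mouse 2) sets much of the HSP70 spread. Scaling by library size alone shifts all log2 fold changes of stroma against luminal cells by -0.29. RNA integrity is not known per library. P-values of the main edgeR comparisons rest on the spread between libraries within groups, in a model without a term for the mouse. Libraries of the same mouse were thus taken as independent there. The mouse was used in the alternatives with a mouse block and was the unit of the exact tests.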
